A study of Mus musculus with 6 samples.

Results

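Peroxides are removed in cells by a small set of enzymes, and 10 genes of this defence were followed here: 3 peroxiredoxins (Prdx1, Prdx5 and Prdx6), the thioredoxin Txn1, its reductase Txnrd1, the sulfiredoxin Srxn1, the glutathione synthesis subunit Gclm, the quinone reductase Nqo1 and 2 glutathione peroxidases (Gpx1 and Gpx4). They were chosen by symbol and matched through their Ensembl identifiers. All 10 were found among the 57132 genes of the table, and all 10 were among the 10554 genes abundant enough to be tested. The data are messenger RNA sequencing of mouse bone marrow cultures grown towards dendritic cells with GM-CSF at 15 ng/mL, in medium with dialyzed serum and β-mercaptoethanol, which is itself a thiol. Marrow came from C57BL/6 female mice 6 to 8 weeks old. One group had no queuine (0Q, queuine-depleted medium) and the other had queuine at 100 nM (100Q), renewed with the medium on days 2 and 4, and RNA was taken on day 5 from 3 cultures in each group. Cultures were plated in triplicate, and no label tells if different mice gave the marrow of each; p-values therefore reflect only how these cultures varied, which may be technical. The series asked what queuosine does to the transcriptome. Cells make queuosine from queuine and carry it in the tRNAs that read the codons of Asn, Asp, His and Tyr.

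Peroxiredoxins and glutathione peroxidases reduce hydrogen peroxide and lipid peroxides. Peroxiredoxins are mostly returned to the reduced state by thioredoxin, and thioredoxin by thioredoxin reductase at the expense of NADPH, whereas glutathione peroxidases draw on glutathione. Many of these genes are induced by the transcription factor NRF2 (gene Nfe2l2), which binds antioxidant response elements. Phagocytes make oxidants themselves and carry high levels of several of these enzymes.

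Library totals were 3675918 to 6755367 counts for 0Q, and for 100Q they were 4484785 to 19386533. All 9 dendritic cell markers examined were detected, 6 with estimates above and 3 below 0 in 100Q, and their summed level was 410.2 to 432 CPM (read counts scaled to the size of each library) in 0Q against 452 to 457 CPM in 100Q. Itgax, which encodes CD11c, had 67.6 to 115 CPM in 0Q against 123 to 150.0 CPM in 100Q, but Flt3 and Zbtb46, which mark conventional dendritic cells, had only 0.567 to 5.48 CPM and 0.556 to 3.16 CPM. Transcripts of other cells were abundant. Of 8 granulocyte markers all had estimates below 0 in 100Q, 3 with an unadjusted p under 0.05, which 2.93% of all genes had. Of genes at 100 CPM or more, as 7 of the 8 are, 32.2% had estimates above 0. These markers summed to 16879 to 19798 CPM in 0Q, against 14077 to 17157 CPM in 100Q. Macrophage markers, 8 in all, summed to 1263 to 1473 CPM and 1100 to 1485 CPM. Of the 6 that could be tested 3 were above and 3 below 0, and C1qa stayed under 1 CPM. The sums were 456 to 511 and 344 to 444 CPM for 6 mast cell and basophil markers, and 99.1 to 113 and 96.3 to 105 CPM for 8 erythroid markers, of which 4, Klf1 among them, stayed under 1 CPM in every library. For 8 lymphoid markers, with Cd3e at 0, they were 59.7 to 73.5 and 44.7 to 65.9 CPM. Sums did not overlap between the groups for mast cell and basophil markers, lower in 100Q, and for dendritic cell markers, higher in 100Q. The latter rested on Itgax, since the other 8 dendritic cell markers summed to 314 to 343 CPM in 0Q and 302 to 333 CPM in 100Q, which overlap. All 6 mast cell and basophil markers had estimates below 0, as did all 4 lymphoid markers tested and 3 of the 4 erythroid ones tested. Among all genes 50% had estimates above 0. Of the 6 mast cell and basophil markers 0 lay wholly apart between the groups, where 8.24% of all genes did, and 0 had an unadjusted p under 0.05 by edgeR. Of the 8 granulocyte markers 3 lay wholly lower in 100Q, where 3.84% of all genes did. Of the 9 dendritic cell markers 2 lay wholly higher in 100Q, where 4.41% of all genes did. The part of these cells in the values below was not tested. In such bulk samples fewer cells of a type and less RNA per cell cannot be told apart.

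Gpx1, Gpx4 and Txnrd1 all encode selenoproteins, whose messages contain a TGA codon read as selenocysteine in place of a stop. The stretches of coding sequence around it are shown because this residue is the catalytic one in each of these enzymes. They are from GENCODE release M39, with the TGA in capitals.
Gpx1: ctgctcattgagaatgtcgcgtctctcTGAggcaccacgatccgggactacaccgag
Gpx4: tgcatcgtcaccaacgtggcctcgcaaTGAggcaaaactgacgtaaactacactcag
Txnrd1: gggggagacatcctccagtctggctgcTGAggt
The TGA was codon 47 of 201 in Gpx1 and codon 73 of 197 in Gpx4. In Txnrd1 it was codon 498 of 499, the last but one of the coding sequence. A glycine codon follows it in each of the 3 genes.

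Promoters were searched for the core of the antioxidant response element, TGACNNNGC on either strand, in RefSeq windows (build GRCm38.p6) from 250 bases before to 50 bases after each start site. Windows were found for 9 of the 10 genes. The motif occurred in 4 of their 14 windows (28.6%), 1 each for 4 genes, against 12.4% of the 32851 windows of all genes. The windows were uneven, with 4 for Gpx4, 3 for Txnrd1 and 1 for each other gene that had any. Prdx5, Txn1, Nqo1, Gpx1 and Gpx4 had no match within their windows. The matches are printed with the 9 motif bases in capitals. All 4 lie on the strand opposite to the gene, so the capitals read as the reverse complement.
Prdx1: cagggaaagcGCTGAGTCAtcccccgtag
Txnrd1: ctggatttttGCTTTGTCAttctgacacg
Gclm: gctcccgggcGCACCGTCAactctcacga
Srxn1: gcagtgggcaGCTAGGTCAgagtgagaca
The first lies at chr4:116685456-116685484 with its motif starting at position -133, and its capitals are the reverse complement of TGACTCAGC, which only 0.454% of windows hold. The others lie at chr10:82859104-82859132 (position -92), chr3:122245413-122245441 (position -134) and chr2:152105542-152105570 (position 29). These are descriptions of the windows. None of the libraries measured binding there.

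No difference between the groups was resolved for any of these genes. With edgeR's quasi-likelihood test, 0 of the 10 genes reached an adjusted p under 0.05, as did 0% of all tested genes, and each of the 10 had an adjusted p of 0.999. At an unadjusted p under 0.05 there were also 0 of the 10, against 2.93% of all genes (309). DESeq2 and limma-voom likewise called 0 of all genes, with 356 and 310 at an unadjusted p under 0.05, of which 0 were among the 10. Estimates were above 0 for 6 genes and below 0 for 4, with a median log2 fold change of 0.03, where 50% of all genes had estimates above 0 and their median was 1.94e-05. The count above 0 was 5 to 7 under other scalings, 4 without 0Q replicate 2 or without 100Q replicate 1, and 8 without 0Q replicate 1. The 5 genes at a mean of 100 CPM or more (Prdx1, Txn1, Prdx6, Gpx1 and Prdx5) had 2 estimates above 0 and a median of -0.04. Among the 1328 genes of that abundance 32.2% had estimates above 0, with a median of -0.06. For the 5 less abundant ones 4 estimates were above 0, and the median was 0.18. Of the 9226 genes of that class 52.6% had estimates above 0, with a median of 0.02.

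**Figure D1:**
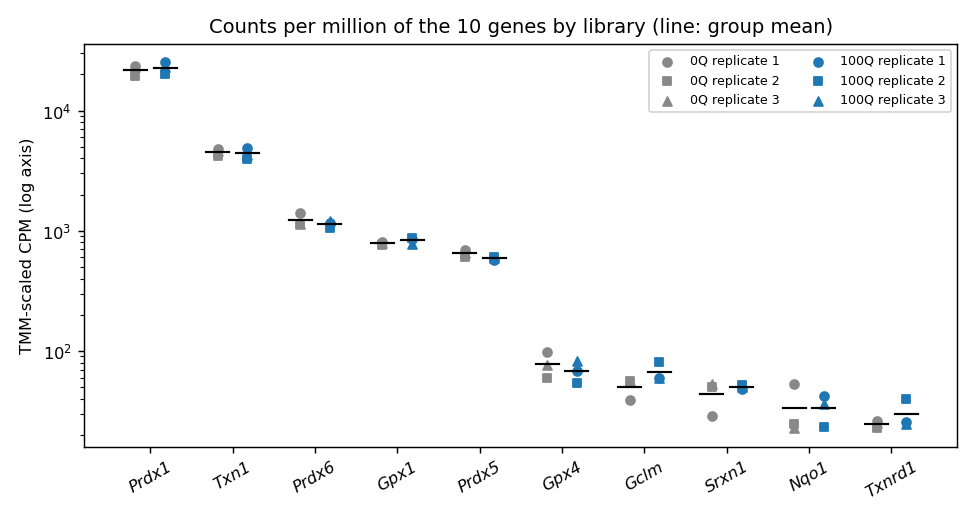
TMM-scaled CPM (log axis) of each gene in each library, grey for 0Q and blue for 100Q, with a line at the mean of 3 libraries. Groups overlap for 8 of the 10 genes, while Prdx5 lies lower and Gclm higher in 100Q.

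How much could have been missed depended on abundance. The 95% intervals of the 5 abundant genes all lay between 0.770-fold and 1.24-fold, and their standard errors were 0.10 to 0.11 on the log2 scale. The 5 others rested on 83 to 1567 counts a library. Their intervals reached from 0.627-fold to 1.84-fold, with standard errors of 0.22 to 0.32. Groups of 3 libraries lay wholly apart for 2 of the 10 genes, where 8.24% of all genes did so.

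Prdx1 (ENSMUSG00000028691, GRCm39 chromosome 4, 116532123 to 116558398, plus strand) encodes the main cytosolic peroxiredoxin and was the third most abundant gene of the cultures by CPM. It had 23551, 19267 and 23015 CPM in 0Q, against 25246, 20364 and 22855 CPM in 100Q. The second library of each group was the lowest and the first the highest, and the groups overlapped. Prdx1 alone took 2.02% to 2.51% of all counts in a library, and the 10 genes together 2.75% to 3.28%. The log2 fold change was 0.06 (SE 0.10, 95% interval -0.16 to 0.27, edgeR adjusted p = 0.999). Its sign rested on single libraries, being -0.04 without 0Q replicate 2 and -0.03 without 100Q replicate 1. Reads can also be divided between Prdx1 and its pseudogenes Gm21399 and Gm7204, which match its coding sequence at 98.3% and 97.5% identity. Such copies held 0.764% to 0.941% of the reads of the group, and with their reads added the log2 fold change was again 0.06.

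Prdx5 (ENSMUSG00000024953, chromosome 19, 6884065 to 6887792, minus strand), a peroxiredoxin of mitochondria, peroxisomes and cytosol, had 690.5, 611 and 658 CPM in 0Q, against 572, 610.0 and 588 CPM in 100Q. All 3 libraries of 100Q lay below those of 0Q, which 3.84% of all genes showed. The nearest libraries, 0Q replicate 2 and 100Q replicate 2, differed by less than 1 CPM (610.8 and 610.0). Its log2 fold change was -0.15 (SE 0.11, 95% interval -0.38 to 0.08). It remained below 0 with each library left out, from -0.20 to -0.10.

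Prdx6 (ENSMUSG00000026701, chromosome 1, 161051417 to 161079098, minus strand) is reduced by glutathione in place of thioredoxin and also acts as a phospholipase. It had 1419, 1136 and 1149 CPM in 0Q, against 1170, 1065 and 1204 CPM in 100Q. Only 0Q replicate 1 stood apart, and without it the log2 fold change went from -0.11 (SE 0.11) to 0.01. Its paralogue Prdx6b had 8.31 counts in 1 library and 0 in the others.

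Txn1 (ENSMUSG00000028367, chromosome 4, 57934208 to 57956424, minus strand), the cytosolic thioredoxin that hands electrons to peroxiredoxins, had 4749, 4186 and 4620 CPM in 0Q. In 100Q the values were 4915, 3986 and 4314 CPM. As for Prdx1, the second library of each group was the lowest and the first the highest. Between groups the log2 fold change was -0.04 (SE 0.10, 95% interval -0.25 to 0.18), and it was 0.03 with the transcript length trend of each library removed.

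Txnrd1 (ENSMUSG00000020250, chromosome 10, 82669785 to 82733546, plus strand), which keeps Txn1 reduced, was far less abundant by counts. It had 26.1, 22.7 and 25.001 CPM in 0Q, against 25.9, 40.02 and 24.5 CPM in 100Q. A single library, 100Q replicate 2, was high. Its counting interval of 34.5 to 46.1 CPM (95%, exact Poisson, counting error only) lay above those of the other 5 libraries, which reached up to 30.8 CPM. The estimate on the log2 scale was 0.29 (SE 0.28), and 0.03 without that library.

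Srxn1 (ENSMUSG00000032802, chromosome 2, 151947436 to 151957687, plus strand) encodes sulfiredoxin, which repairs peroxiredoxins that have been overoxidized. It had 28.7, 50.5 and 53.6 CPM in 0Q, against 48.1, 52.0 and 49.8 CPM in 100Q. Here 0Q replicate 1 was low and the other 5 libraries lay close together. The counting interval of that library was 24.3 to 33.6 CPM, below the lowest bound of 42.4 CPM among the others. Its log2 fold change of 0.18 (SE 0.24) became -0.06 without it.

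Gclm (ENSMUSG00000028124, chromosome 3, 122039126 to 122065061, plus strand), the modifier subunit of the enzyme that starts glutathione synthesis, had the largest estimate of the 10. Its values were 39.3, 56.7 and 55.8 CPM in 0Q, against 59.7, 81.3 and 59.5 CPM in 100Q. Each library of 100Q was higher than any of 0Q, which 4.41% of all genes showed. The gap was narrow, between 56.7 CPM in 0Q replicate 2 and 59.5 CPM in 100Q replicate 3, whose counting intervals of 51.3 to 62.5 and 56.1 to 63.1 CPM overlapped. The log2 fold change was 0.40 (SE 0.22, 95% interval -0.06 to 0.86, unadjusted p = 0.0835 and adjusted p = 0.999 by edgeR). It was 0.23 without 100Q replicate 2 and 0.49 without 0Q replicate 2.

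Nqo1 (ENSMUSG00000003849, chromosome 8, 108113835 to 108129934, minus strand), a quinone reductase widely used as a readout of NRF2, varied most among libraries. It had 53.1, 24.8 and 23.1 CPM in 0Q, against 41.8, 23.4 and 36.0 CPM in 100Q, so the highest and the lowest library were both in 0Q and differed 2.30-fold. Counting intervals of 47.0 to 59.7 and 18.4 to 28.6 CPM for these libraries did not meet. The group means of 33.6 ± 16.8 and 33.7 ± 9.43 CPM (SD, n = 3 each) were nearly equal. On the log2 scale the difference was 0.00468 (SE 0.32), but 0.50 without 0Q replicate 1 and -0.20 without 0Q replicate 3.

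Gpx1 (ENSMUSG00000063856, chromosome 9, 108216102 to 108217546, plus strand), the cytosolic glutathione peroxidase, was the steadiest of the 10. It had 813, 758 and 789 CPM in 0Q, against 860, 872 and 773 CPM in 100Q, and its highest library was 1.15-fold above its lowest. Its groups differed by 0.09 on the log2 scale (SE 0.11, 95% interval -0.14 to 0.31), with 0.05 to 0.14 when a library was left out.

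Gpx4 (ENSMUSG00000075706, chromosome 10, 79883000 to 79892273, plus strand) reduces peroxides within membranes and protects cells from ferroptosis. It was listed with 97.6, 59.1 and 76.7 CPM in 0Q, against 68.1, 54.1 and 82.8 CPM in 100Q. Much Gpx4-like sequence was counted elsewhere. Gm63662, annotated as a long noncoding RNA on chromosome 10 (45751384 to 45752191), matches the Gpx4 coding sequence at 99.6% identity over 553 bases, and it overlaps the annotated pseudogene Gpx4-ps2. Gm63662 and the 2 Gpx4 pseudogenes held 50.7% to 60.3% of the reads of all 4 genes, nearly all of them at Gm63662. Which of the genes the reads came from cannot be read from the table. With the copies added to Gpx4 its level was 206, 139 and 156 CPM in 0Q, against 143, 136 and 168 CPM in 100Q, and the highest library was 1.51-fold above the lowest, against 1.80-fold for Gpx4 alone. The log2 fold change was -0.16 (SE 0.16) for the sum and -0.18 (SE 0.22) for Gpx4 alone, and the latter became 0.02 without 0Q replicate 1. Values were not whole, and so rested in part on divided reads, in all 6 libraries for Prdx1, Txn1, Gpx1 and Gpx4 and in 0 for Srxn1, Gclm and Nqo1.

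**Figure D2:**
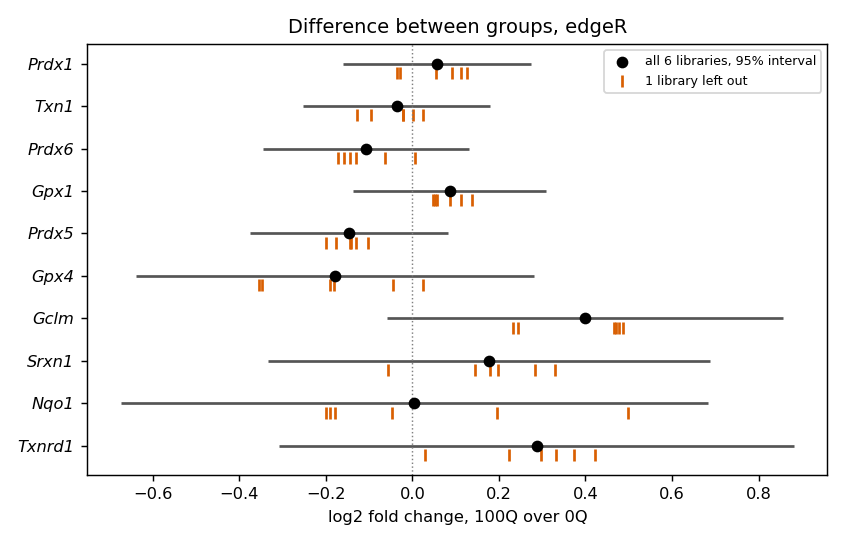
Log2 fold change of 100Q over 0Q (points) with 95% intervals (lines) by edgeR, most abundant gene on top; orange ticks are the estimates with 1 library left out. All 10 intervals include 0, and those of the 5 less abundant genes are wider.

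The libraries differed among themselves in ways that the groups did not follow. In 0Q replicate 1, Nqo1, Gpx4 and Prdx6 were 0.73, 0.45 and 0.26 above their own means on the log2 scale, and Prdx5 was also at its highest. In the same library Srxn1 and Gclm were 0.69 and 0.55 below theirs. Across all tested genes, the Spearman rho between transcript length and the deviation of a gene from its mean was -0.18 in that library and -0.05 to 0.12 in the other 5. Among genes at 100 CPM or more it was only -0.05 there, with -0.18 in 0Q replicate 3 and 0.17 in 100Q replicate 1. In 0Q replicate 1 the 10 genes followed length only in part. Srxn1, Gclm and Txnrd1, the lowest of the 10 there, have the longest transcripts at 7317, 6349 and 3622 bases. Txnrd1 was only 0.04 below its mean. Gpx4, with the shortest transcript at 995 bases, was high, but so were Nqo1 and Prdx6 at 2748 and 3363 bases. Txn1 and Gpx1, at 1064 and 1072 bases, were only 0.09 and 0.01 above their means. With a length trend removed from each library the log2 fold change was 0.12 for Srxn1, 0.34 for Gclm and -0.10 for Gpx4, nearer 0 than before. The same held for Txnrd1 (0.26), Prdx5 (-0.11) and Prdx1 (0.05). It was farther from 0 for Gpx1 (0.15) and Prdx6 (-0.13), 0.01 for Nqo1 and 0.03 for Txn1. The part of length in these differences was not tested. In 100Q replicate 2, Txnrd1 and Gclm were 0.58 and 0.50 above their means while Nqo1 and Gpx4 were 0.45 and 0.40 below.

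**Figure D3:**
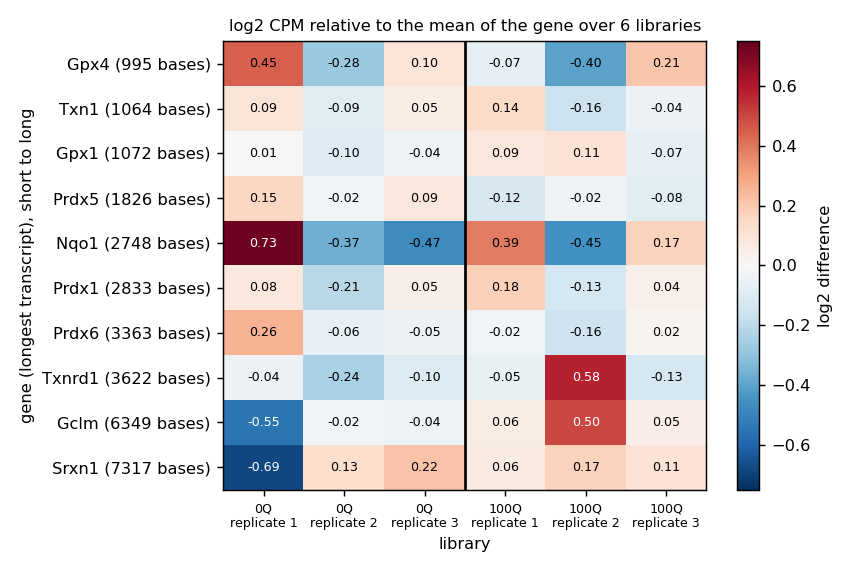
Log2 CPM of each gene relative to its own mean over 6 libraries, genes ordered from short to long transcripts and the groups parted by the black line. In 0Q replicate 1 Srxn1 and Gclm are low and Nqo1, Gpx4 and Prdx6 are high.

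Across the 6 libraries, which also differ in depth and in their relation to length, log2 CPM of Prdx1 and Txn1 had a Pearson r of 0.88, and Srxn1 and Gclm 0.81. Prdx6 had -0.93 with both Srxn1 and Gclm. Srxn1 was 0.69 below its mean in 0Q replicate 1 and 0.06 to 0.22 above it in the other libraries. Its values with Gclm and Prdx6 therefore lean on 0Q replicate 1. Nqo1 and Srxn1, both known as targets of NRF2, had -0.80. Among 1327 other genes at 100 CPM or more, those most like Prdx1 over the 6 libraries were the chemokine Ccl6 (r = 0.99), the macrophage elastase Mmp12 (0.99), the histone gene H3f3b (0.98), the cytokine receptor Il7r (0.98) and the proteasome subunit Psmb6 (0.98). With 6 libraries these values are descriptions only.

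Levels of different genes were compared per length, in TPM, which scales counts by transcript length and then by library, based on the longest annotated transcript. Prdx1 was first at 13444 ± 630.4 TPM in 0Q and 14508 ± 1346 TPM in 100Q (SD, n = 3 each). Txn1 followed at 7383 ± 69.1 and 7460 ± 734 TPM, below Prdx1 in 6 of 6 libraries. Gpx1 came next at 1278 ± 41.9 and 1407 ± 136 TPM. Each of these 3 stood above the next gene in the order in all 6 libraries. Prdx6 (637 ± 52.8 and 614 ± 18.6 TPM) and Prdx5 (622 ± 4.02 and 583 ± 36.5 TPM) did not differ beyond their spread, Prdx6 being higher in 4 of 6 libraries. Their order depends on the length used: with merged exons Prdx5 (559 TPM over all libraries) was 1.94-fold above Prdx6 (289 TPM) in 6 of 6 libraries, and with canonical transcripts Prdx6 was 1.12-fold above Prdx5 in 6 of 6. Gpx4 had 135 ± 24.97 and 123 ± 21.6 TPM without its copies. The last 4 lay close together. Nqo1 had 21.0 ± 9.33 and 22.04 ± 5.76 TPM, Gclm 13.99 ± 3.43 and 19.1 ± 4.25 TPM, Txnrd1 11.8 ± 0.0570 and 15.1 ± 4.86 TPM, and Srxn1 10.6 ± 3.65 and 12.3 ± 0.850 TPM. None of the steps between these last 4 held in all 6 libraries. The small SD of Txnrd1 in 0Q rests on 138, 161 and 90 counts. Counting error alone is wider, at 21.9 to 30.8 CPM in 0Q replicate 1. Its higher mean in 100Q rests on replicate 2, at 20.7 TPM, against 12.8 and 11.8 TPM in replicates 1 and 3. Prdx1 was above Txnrd1 and Srxn1 in every library, at 12739 TPM or more against at most 20.7 and 13.3 TPM.

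The tRNAs that carry queuosine read 2 codons for each of 4 amino acids, ending in U or in C, and the coding sequences of the 10 genes differed widely in which they use. On the longest annotated coding sequence, U-ending codons made up 67.6% of such codons in Prdx1 (23 of 34) and 15.0% in Srxn1 (3 of 20). These shares stood at the 96.4 and 1.11 percentiles of 9405 tested genes with at least 10 such codons, whose median was 43.8%. Txn1 had 55.6% and Nqo1 29.7%, and the other 6 genes lay between 35.7% and 45.7%. The median over the 10 was 39.1%. Stretches of 20 codons from the canonical coding sequences of the 2 extreme genes, picked as the richest in U-ending codons for Prdx1 and in C-ending codons for Srxn1 after these shares were seen, show the contrast, with the codons for Asn, Asp, His and Tyr in capitals.
Prdx1: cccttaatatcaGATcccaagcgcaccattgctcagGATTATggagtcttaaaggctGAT
Srxn1: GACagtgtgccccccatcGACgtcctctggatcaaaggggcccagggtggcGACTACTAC
The first runs from codon 103 to 122 and holds 4 codons ending in U and 0 ending in C. The other runs from codon 73 to 92 and holds 0 ending in U and 5 ending in C. Prdx1 used GAT for 15 of its 17 Asp codons. The mRNA log2 fold changes of Prdx1 and Srxn1, 0.06 and 0.18, were both within their errors of 0. Translation was not measured in these libraries.

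**Figure D4:**
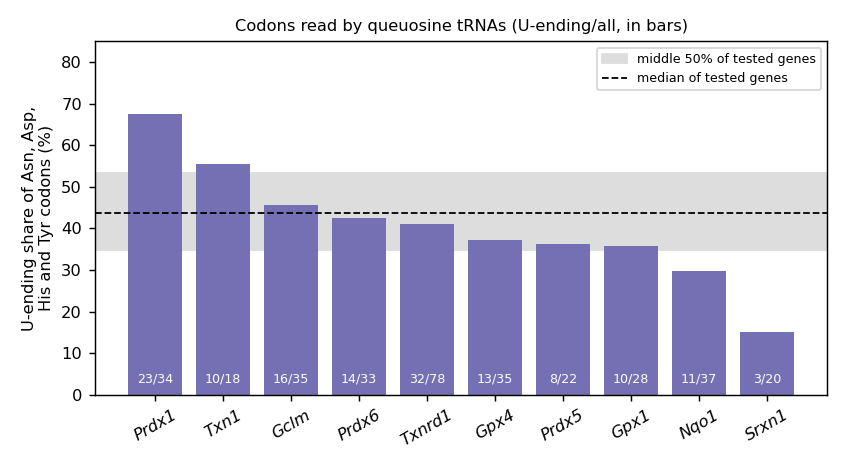
Share of U-ending codons among all codons for Asn, Asp, His or Tyr in the longest annotated coding sequence, with the codon counts in the bars. The dashed line is the median of tested genes, the grey band their middle 50%; Prdx1 and Txn1 lie above the band and Nqo1 and Srxn1 below it.

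Other genes of the same pathways were taken as 8 lists, and 0 of their 67 tested members reached an adjusted p under 0.05 by edgeR, DESeq2 or limma-voom. The 3 other peroxiredoxins all had estimates below 0, with a median log2 fold change of -0.11. All 3 lay at a mean of 100 CPM or more, where 32.2% of genes had estimates above 0 and the median was -0.06. Prdx2, a cytosolic relative of Prdx1, had 454 ± 51.9 CPM in 0Q, against 420.4 ± 19.7 CPM in 100Q (SD, n = 3 each, here and below), and the mitochondrial Prdx3 had 192 ± 20.2 and 166 ± 24.8 CPM. Of 10 other thioredoxin and glutaredoxin genes 7 had estimates above 0 (median 0.06). The glutaredoxin Glrx, which removes glutathione from proteins, was the 1 gene of these 67 with an unadjusted p under 0.05 by edgeR. Of all tested genes, 2.93% had such a p. It had 1377, 972 and 1142 CPM in 0Q, against 989, 820 and 1012 CPM in 100Q. Groups overlapped, and the log2 fold change was -0.31 (SE 0.13, unadjusted p = 0.0294 and adjusted p = 0.999 by edgeR), or -0.17 without 0Q replicate 1. Txnip, an inhibitor of thioredoxin, had 55.8 ± 13.1 and 65.0 ± 4.84 CPM.

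Glutathione genes had no common direction: of 15 tested, 9 had estimates above 0, and their median was 0.01. Mgst1, a microsomal glutathione transferase, was the most abundant at 510 ± 27.7 and 478 ± 24.2 CPM. Abcc1, which exports glutathione conjugates, had 43.2 ± 7.67 and 56.1 ± 14.9 CPM, and the glyoxalase Glo1 187 ± 6.47 and 163 ± 32.4 CPM. For superoxide dismutases and catalase 1 estimate was above and 2 were below 0 (median -0.11). The mitochondrial Sod2 had 108 ± 11.9 and 113 ± 10.0 CPM, Sod1 35.9 ± 2.59 and 30.7 ± 6.38 CPM and Cat 86.7 ± 15.3 and 80.4 ± 5.07 CPM, while Sod3 was at 0 throughout, where 3 counts, the limit that a count of 0 allows, come to 0.159 to 0.833 CPM depending on the library (counting error only).

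**Figure D5:**
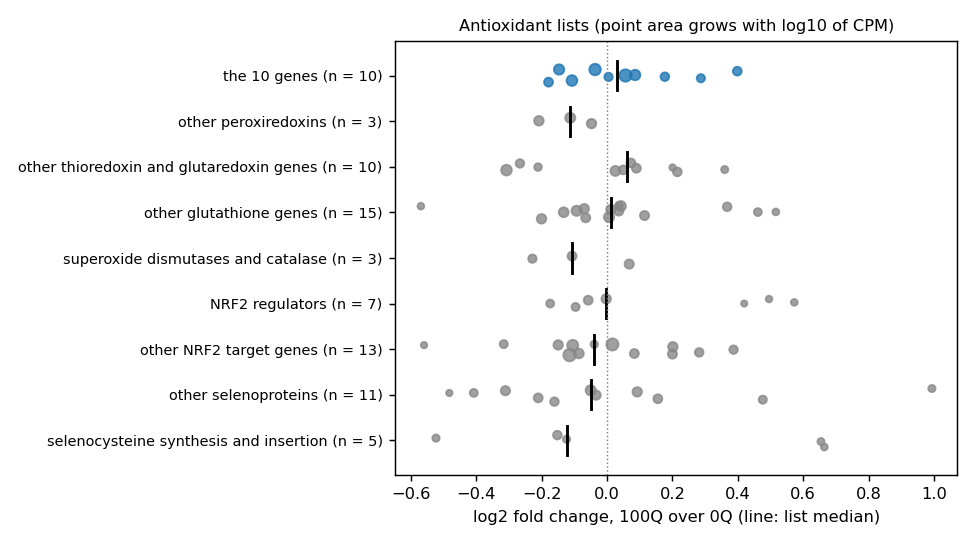
Log2 fold change of 100Q over 0Q for each tested gene of the 10 (blue) and of 8 related lists (grey), with a black line at the median of each list. Points are larger for more abundant genes. Medians lie between -0.12 and 0.06, and the points farthest from 0 are genes of low abundance, such as Selenon.

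Nfe2l2, the gene of NRF2, had 165, 149.9 and 174 CPM in 0Q, against 149.996, 167 and 169.7 CPM in 100Q. These overlap throughout, and the estimated log2 difference was -0.00249 (SE 0.14, 95% interval -0.30 to 0.29). Its sign turned under 7 settings, among them a scaling by library totals alone (0.04). Of 7 regulators 3 had estimates above 0, and Keap1, which targets NRF2 for degradation, and Maff, a small Maf partner of NRF2, had under 8 CPM in every library. Their log2 fold changes of 0.57 (95% interval -0.78 to 1.93) and 0.50 (-1.08 to 2.07) had wide errors. Estimates for 13 other NRF2 target genes were above 0 for 6 and below 0 for 7 (median -0.04). The ferritin light chain Ftl1 had 35855 ± 4930 and 33123 ± 2196 CPM, Pgd of the NADPH-making pentose phosphate pathway 147 ± 25.4 and 170 ± 25.5 CPM, and Ugdh, which makes UDP-glucuronate, 33.6 ± 12.2 and 44.3 ± 8.91 CPM.

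Selenoproteins share with Gpx1, Gpx4 and Txnrd1 the need for selenocysteine. Of 11 others tested, 4 had estimates above and 7 below 0 (median -0.05). Selenok, a protein of the endoplasmic reticulum, was the most abundant at 504 ± 36.2 and 487 ± 15.4 CPM, Selenoh had 127 ± 22.9 and 102 ± 21.2 CPM and Selenon 4.63 ± 4.58 and 9.64 ± 2.83 CPM. Of 5 tested genes that make or insert selenocysteine, 2 had estimates above and 3 below 0 (median -0.12). Sephs2, which supplies selenophosphate, had 49.9 ± 21.1 and 44.9 ± 10.5 CPM, Trnau1ap 9.62 ± 2.07 and 6.77 ± 1.17 CPM, and Secisbp2, which binds the element that recodes UGA, 4.61 ± 2.91 and 7.35 ± 3.18 CPM.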

How the data were processed

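The values are RSEM expected counts, not normalized, deposited by the authors as 1 table with a row for each Ensembl gene and a column for each of the 6 libraries, made with FastQC, STAR and RSEM on mm39 (GRCm39), per the submitters' processing notes. For tool versions, annotation release and strandedness: not given in the sources used here. RSEM divides ambiguous reads, so 5.51% to 10.5% of all values in a library were not whole (tolerance 0.005). These shares include genes without reads, which are always whole. Of the 57132 genes, 13752 to 18284 in a library had a rounded count above 0. Symbols, positions and lengths came from GENCODE M39, and 502 identifiers had no match. Counts were rounded and tested with edgeR 4.0.16 in R 4.3.3 (filterByExpr, TMM, robust glmQLFit and glmQLFTest, Benjamini-Hochberg over 10554 genes, threshold 0.05). CPM used totals over tested genes scaled by TMM. The fit was tested on simulated data. Copies were transcripts matching a coding sequence by blastn at 90% identity over 200 bases. Alternatives used DESeq2 1.42.0, limma 3.58.1, other scalings and filters, a fit blocked on replicate number, and omission of each library in turn. No 2 libraries held identical values, with a chi-square per gene of 8.68 to 19.8. The genes, lists and tests were chosen with earlier results of these data known. Besides the 10 genes, the text names from each list the most abundant gene and the 2 with the smallest p, and the 5 genes most correlated with Prdx1. Counting intervals and floors (3 counts) cover counting error only.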

Additional observations from a re-analysis of the deposited data

How the results depend on the processing

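Addition of copies to their gene and use of canonical transcripts were chosen after seeing the data. In every setting 0 of the 10 genes passed the threshold. The count of all genes that passed was 0 in the full set and 0 to 2 over omitted libraries (2 without 0Q replicate 1, 1 without 0Q replicate 2). The median of 0.03 was -0.08 when 100Q replicate 1 was omitted, -0.07 when 0Q replicate 2 was, and 0.02 to 0.07 in all other settings, omitted libraries included. With each library omitted in turn the log2 fold change changed sign for Prdx1 (-0.036 to 0.13), Prdx6 (-0.17 to 0.0059), Txn1 (-0.13 to 0.025), Srxn1 (-0.057 to 0.33), Nqo1 (-0.20 to 0.50), Gpx4 (-0.35 to 0.024), Sod2 (-0.012 to 0.15), Cat (-0.25 to 0.0050), Nfe2l2 (-0.066 to 0.044), Maff (-0.069 to 1.06) and Sephs2 (-0.47 to 0.045). Txn1 was 0.00020 with library totals alone and 0.033 with the length trend removed, Nqo1 was -0.010 by DESeq2 and -0.0098 by RLE size factors, and Sod2 was -0.0020 with the length trend removed. Nfe2l2 was 0.024 by limma-voom, 0.036 with library totals alone, 0.013 without a filter and 0.016 among genes at 10 CPM or more. None of these values was called, and the cause was not tested. Among the 10 genes 11 of 60 values changed sign with a library omitted and 4 of 110 otherwise. On merged exons 4 genes changed place in the order by level (Prdx5 above Prdx6, Srxn1 above Txnrd1), and on canonical transcripts 0 did. In the fit blocked on replicate number (replicate block) 0 genes passed and the median of the 10 was 0.06, so it changed no call. Deviations of libraries with the same number correlated at 0.12, 0.32 and -0.15 over 1328 genes, and those with different numbers at -0.44 to 0.42. For replicate 2 the value of 0.32 lay above its range with other numbers (-0.38 to -0.02). For replicate 1 it lay within that range (-0.44 to 0.42), and for replicate 3 just below it (-0.14 to 0.24). With 3 libraries in each group these values are too few to settle if cultures of the same number belong together, and no conclusion on pairing is drawn.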
